A study of Mus musculus with 32 samples.

Results

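The genes described here encode the proteins of the cytosolic ribosome. They were taken as every autosomal gene whose symbol has the form of a ribosomal protein name (Rpl or Rps with a number, Rpsa, or Rplp0 to Rplp2) and which had a mean of 20 or more informative reads per pool in a brain region. An informative read is one that covers a base at which the strains CAST/EiJ and C57BL/6J (B6) differ, so that it can be assigned to 1 of the 2 parental alleles. The rule gave 57 genes of 14680 in at least 1 region: 57 of 14190 in the embryonic brain, 50 of 11504 in the preoptic area and 50 of 11029 in the prefrontal cortex, with 49 in all 3.

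Brain RNA came from 2 reciprocal F1 crosses, in which every animal carries 1 CAST and 1 B6 genome and only the parent of origin differs. The cross named F1i had CAST mothers and B6 fathers. F1r had B6 mothers and CAST fathers (the strain field of these samples repeats the name F1i, while the titles and the stated parents say F1r). The embryonic tissue was whole brain at day 15 (E15), with 1 pool of 4 to 5 individuals per cross and no stated sex. The adult tissues were the preoptic area (POA) and the medial prefrontal cortex (PFC) of animals of 5 weeks, each with 1 male and 1 female pool of 8 to 10 animals per cross. E15 brain of each pure strain was sequenced as well. The labels name no treatment and no altered gene. Apart from the comparison with the pure strains, all values describe 10 F1 pools, 2 embryonic and 4 from each adult region. A pool averages its animals, so the tests measure the spread between pools and not between animals.

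The ribosome translates messenger RNA into protein. Its small subunit (Rps proteins) reads the codons, and its large subunit (Rpl proteins) holds the site where peptide bonds form. The genes are transcribed in nearly all cells, and most of their messages carry a terminal oligopyrimidine tract at the 5′ end through which mTOR signalling controls their translation. Growing and dividing cells need more ribosomes than cells that have left the cycle. Each protein also has many processed pseudogenes, intronless copies whose sequence can be close to that of the parent gene, so a short read may not belong to one locus alone.

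The informative reads sat on few bases. The 57 E15 genes had a median of 2 such bases (SNPs) each, against 8 over all genes. Of them, 17 had a single SNP, and Rps24 had the most with 25. The SNPs below are those on which the allele results turn, because neighbouring SNPs of the same transcript gave different allele shares. The sequence is that of the B6 reference assembly (NCBIM37, the same build as mm9) on the strand of the transcript, and the capital marks the SNP. A token such as G887C gives the B6 base, the position counted from 1 at the 5′ end of the transcript, and the CAST base.
Rpl7 G506A: ctgcggattgtggaGccatacattgcatg
Rpl7 G887C: tcagttaataaacaGtcacagcttggcaa
Rpl7 T896C: aaacagtcacagctTggcaaattgaaatg
Rpl4 T1277C: gagaagaagcctacTacagaagaaaagaa
Rpl4 G1346A: agcaagtagagaccGcatatttcaataaa
Rpl27a A283G: gtcagcgagcagacAcgggtcaatgcggc
Rpl27a A812G: ccagattgctagcaActgcctagctttgt
Rps3 C574T: attcacagtggagaCcctgttaactacta
Rps3 C652T: atcaaagtgaagatCatgctgccctggga
Rpl7 (chr1:16091376-16094743, minus strand) has G506A in the coding sequence and the other 2 SNPs in the 3′ UTR, 9 bases apart. Rpl4 (chr9:64021194-64026369, plus strand) has T1277C in the coding sequence and G1346A in the 3′ UTR. Rpl27a (chr7:116662661-116665881, plus strand) has A283G in the coding sequence and A812G in the 3′ UTR. Rps3 (chr7:106626406-106632248, minus strand) has both of the SNPs shown in its coding sequence.

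Some members were left out for want of reads. In E15 Rplp2 was under the limit with a mean of 5.5 reads, and the genes just above it were Rps25 with 190.5 and Rpl35 with 246.5. In the POA Rpl35 (6.25) fell under the limit and Rps25 (24.0) and Rpl34 (50) passed. In the PFC Rpl34 (19) fell under it and Rps25 (34.25) passed. Of 80 ribosomal protein genes and paralogues on the list drawn up for this report, 20 were not analysed here, among them Rplp0, Rps27a and Rps14. Rps4x and Rpl36a lie on the X chromosome and were not members. The E15 set held 35 large subunit genes, 20 small subunit genes and 2 genes of paralogous proteins, Rpl7l1 and Rps27l.

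Depth was 11454846 and 11908414 informative reads in the E15 pools, 3603514 to 7702810 in the POA and 4963402 to 7470295 in the PFC. Marker lists agreed in direction with the labelled tissues. The summed level of 8 embryonic brain genes was 2736 to 2800 RPM (reads per 1000000 informative reads outside the mitochondrial genome) in E15. It was at most 146 in the adult pools, whose tables list 4 of the 8. That of 8 prefrontal genes was 2593 to 3843 in the PFC (6 listed) and at most 18.2 in the POA (3 listed). That of 10 preoptic genes was 2538 to 2828 in the POA (10 listed), 471 to 483 in the PFC (4 listed) and 428 to 517 in E15 (9 listed). Oligodendrocyte genes summed to 9556 to 10303 RPM in the POA, 1580 to 5171 in the PFC and 131 to 143 in E15, and blood and endothelial genes to 1450 to 2162 in E15 and at most 211 in the adult pools. Their part in the results below was not tested. In a bulk sample, fewer cells of a type and less RNA per cell cannot be told apart.

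Ribosomal protein genes took a larger part of the informative reads in embryonic brain than in the adult regions. Over all members of each table, the sum was 22145 RPM in E15 F1i and 18600 in E15 F1r, or 2.21% and 1.86% of the reads. The POA pools lay between 10023 and 10363 RPM. The PFC pools lay at 10441 (F1i male), 8379 (F1r male), 10320 (F1i female) and 11268 (F1r female). Restricting the sum to the 49 shared genes and to the SNPs listed in all 3 tables left the E15 pools at 20103 and 17105 RPM and the adult pools between 8252 and 11122. Both E15 pools were above all 8 adult pools on either sum, and the adult regions overlapped.

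**Figure D1:**
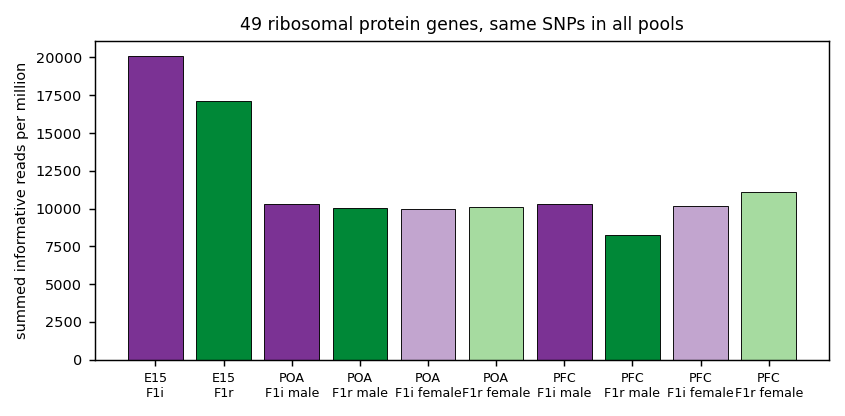
Bars give the summed RPM (y axis, starting at 0) of 49 ribosomal protein genes at the same SNPs in each of the 10 F1 pools (x axis). The E15 pools stand at 20103 and 17105, and the 8 adult pools between 8252 and 11122.

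Levels of different genes were compared per SNP, since a gene with more SNPs collects more reads. In E15 the mean level per SNP ran from 3.14 RPM to 520 RPM, with Rps20, a small subunit protein, at the top and Rpl29 (413) and Rpl4 (308) next. In the POA the highest per SNP were Rpl37 (232) and Rps15 (204). In the PFC they were Rps20 (250), Rpl23a (220) and Rpl8 (198). By the mean over pools, Rps20 was thus first in E15 and the PFC, and Rpl37 in the POA. The E15 ranks of Rps20 and Rpl29 lean on the F1i pool. Over all its SNPs Rps20 had 1715 RPM in F1i and 364 in F1r, and Rpl29 had 683 and 143.

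The test between E15 and PFC called 30 of 51 members higher in E15 and 0 lower (edgeR quasi-likelihood test, Benjamini-Hochberg adjusted p under 0.05 over all genes). No member was lower at an unadjusted p under 0.05 either, and DESeq2 called 28 higher and 0 lower. Without either E15 pool a few were lower, 1 without F1i (24 higher) and 2 without F1r (23 higher). Over all 12508 genes tested, 53.3% were called, 27.2% higher and 26.2% lower. The median log2 fold change was 0.69 over the members and 0.03 over all genes. Among large subunit members 15 of 29 were higher, among small subunit members 13 of 20, and both paralogues were. These calls used SNPs listed in both tables. Without the TMM scaling of libraries 38 were higher and 0 lower, and the split of all genes under that setting is not given here.

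Rpl7, a large subunit protein, had 577 and 824 RPM in the E15 F1i and F1r pools. In the PFC it had 192 (F1i male), 135 (F1r male), 180 (F1i female) and 214 (F1r female). The groups did not overlap, and the log2 fold change was 1.70 ± 0.21 (SE; edgeR adjusted p = 4.74e-05). Rpl5, which with Rpl11 carries 5S ribosomal RNA into the large subunit and can bind Mdm2, had 52.1 and 57.8 RPM in E15 and 11.1, 22.1, 13.9 and 13.1 in the PFC, in the same order of pools. Its log2 fold change was 1.64 ± 0.25 (edgeR adjusted p = 0.000209). All 4 PFC pools of Rpl5 were below both E15 pools.

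Rps27l, a p53-responsive paralogue of Rps27, had 104 and 57.1 RPM in E15 and between 20.3 and 26.2 in the PFC. It was higher in E15 by 1.57 ± 0.25 on the log2 scale (edgeR adjusted p = 0.000358). Rps10 had 337 and 249 RPM in E15 against 94.5 to 110.5 in the PFC, a log2 difference of 1.31 ± 0.19 (edgeR adjusted p = 0.000142). Rpl10a, whose presence or absence is one way in which ribosomes of the same cell differ, had 318 and 382 RPM in E15 against 101 to 137. Its log2 difference was 1.28 ± 0.18 (edgeR adjusted p = 0.000155). In each of these 3 genes the E15 pools stood above every PFC pool.

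Rps6, the small subunit protein that S6 kinase phosphorylates, had 1288 and 1420 RPM in E15 and 509.5 to 633 in the PFC, a log2 difference of 0.98 ± 0.17 (edgeR adjusted p = 0.000533). Rpsa, the small subunit protein also known as the laminin receptor, had 2734 and 1750 RPM in E15 and 799 to 1386 in the PFC, a log2 difference of 0.67 ± 0.22 (edgeR adjusted p = 0.0244). The Rpsa call ended with each table's own SNPs (0.51; adjusted p = 0.0679), without E15 F1i (0.40; adjusted p = 0.298) and without the PFC F1i male or female pool (adjusted p = 0.0898 and 0.082). Rpl7l1, a paralogue of Rpl7, had 88.0 and 113 RPM against 51.7 to 61.2, a log2 difference of 0.64 ± 0.19 (edgeR adjusted p = 0.0139). Without E15 F1r it was 0.44 (adjusted p = 0.172), which ends the call. Rplp1, an acidic protein of the stalk that binds elongation factors, was not called: it had 44.5 and 144 RPM in E15 and 39.9 to 62.1 in the PFC, which overlap.

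Against the POA, 25 of 50 members were higher in E15 and 2 lower. The background was 62.5% of 12719 genes, 31.9% higher and 30.6% lower. The members' median log2 fold change was 0.64 and that of all genes 0.03. Large subunit members were higher in 16 and lower in 2 of 29, small subunit members higher in 7 and lower in 0 of 19, and both paralogues were higher. This comparison uses the same 2 E15 pools as the one with the PFC, so the 2 sets of values share them.

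Rpl4 had 1202 and 1260 RPM in E15 and 249 (F1i male), 247 (F1r male), 226 (F1i female) and 234 (F1r female) in the POA, a log2 difference of 2.37 ± 0.11 (edgeR adjusted p = 1.63e-07). Rpl7 had 124 to 144 RPM in the POA, below its E15 values by 2.35 ± 0.14 (edgeR adjusted p = 4.66e-07). Rpl5 had 8.8 to 13.9 in the POA, below E15 by 2.35 ± 0.20 (edgeR adjusted p = 4.5e-06). The POA pools of these large subunit genes lay close together and far below E15.

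Rpl32 had 215 and 149 RPM in E15 and 40.7 to 50.02 in the POA, a log2 difference of 1.98 ± 0.17 (edgeR adjusted p = 5.42e-06). Rps25, a small subunit protein used by several viral internal ribosome entry sites, had 18.5 and 14.2 RPM against 3.3 to 4.9, a log2 difference of 1.96 ± 0.26 (edgeR adjusted p = 9.4e-05). Rps27l was higher by 1.30 ± 0.23, Rpsa by 1.17 ± 0.15, Rps6 by 0.98 ± 0.12 and Rpl7l1 by 0.64 ± 0.15 (edgeR adjusted p of 0.000719, 6.59e-05, 6.39e-05 and 0.00396). With the SNP of most reads Rps27l was 0.62 (adjusted p = 0.0545), which ends the call, while Rpsa, Rps6 and Rpl7l1 were 2.11, 1.81 and 1.87. Single SNPs of 200 or more reads were uneven, in RPM without TMM. Their log2 ratios of E15 to POA ran from -0.30 to 2.71 in Rpsa and from 0.07 to 2.26 in Rps6. In Rpl7l1 they ran from -0.60 to 2.30, with a median of 0.01. Rplp1 was not called (0.14 ± 0.25), with 0.71 without E15 F1i and -0.53 without E15 F1r (adjusted p = 0.00225 and 0.0234).

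The 2 members called lower in E15 than in the POA were Rpl3 and Rpl34. Rpl3, a large subunit protein close to the peptidyl transferase centre, had 327 and 323 RPM in E15 and 455 to 603 in the POA, a log2 difference of -0.67 ± 0.14 (edgeR adjusted p = 0.0018). Rpl34 had 5.2 and 1.9 RPM in E15 and 6.4 to 11.4 in the POA at the 1 SNP both tables list, a difference of -1.39 ± 0.40 (edgeR adjusted p = 0.0108). With the SNPs of each table, Rpl34 was higher in E15 by 3.99 on the log2 scale, since its other SNP is listed in E15 alone. Without the E15 F1r pool, the difference at the shared SNP was -0.75 (adjusted p = 0.0968), which ends the call.

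Rps20 had the largest fitted change against the POA, with unequal E15 pools. It had 1715 RPM in E15 F1i and 364 in E15 F1r, and 90.1 to 136 in the POA, a log2 difference of 2.90 ± 0.42 (edgeR adjusted p = 0.000182). Without the F1i pool the difference was 1.52, and without the F1r pool 3.97. Against the PFC (164 to 305 RPM) it was 1.54 ± 0.35 (edgeR adjusted p = 0.00303) and 0.49 without the F1i pool (adjusted p = 0.18), which ends the call.

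**Figure D2:**
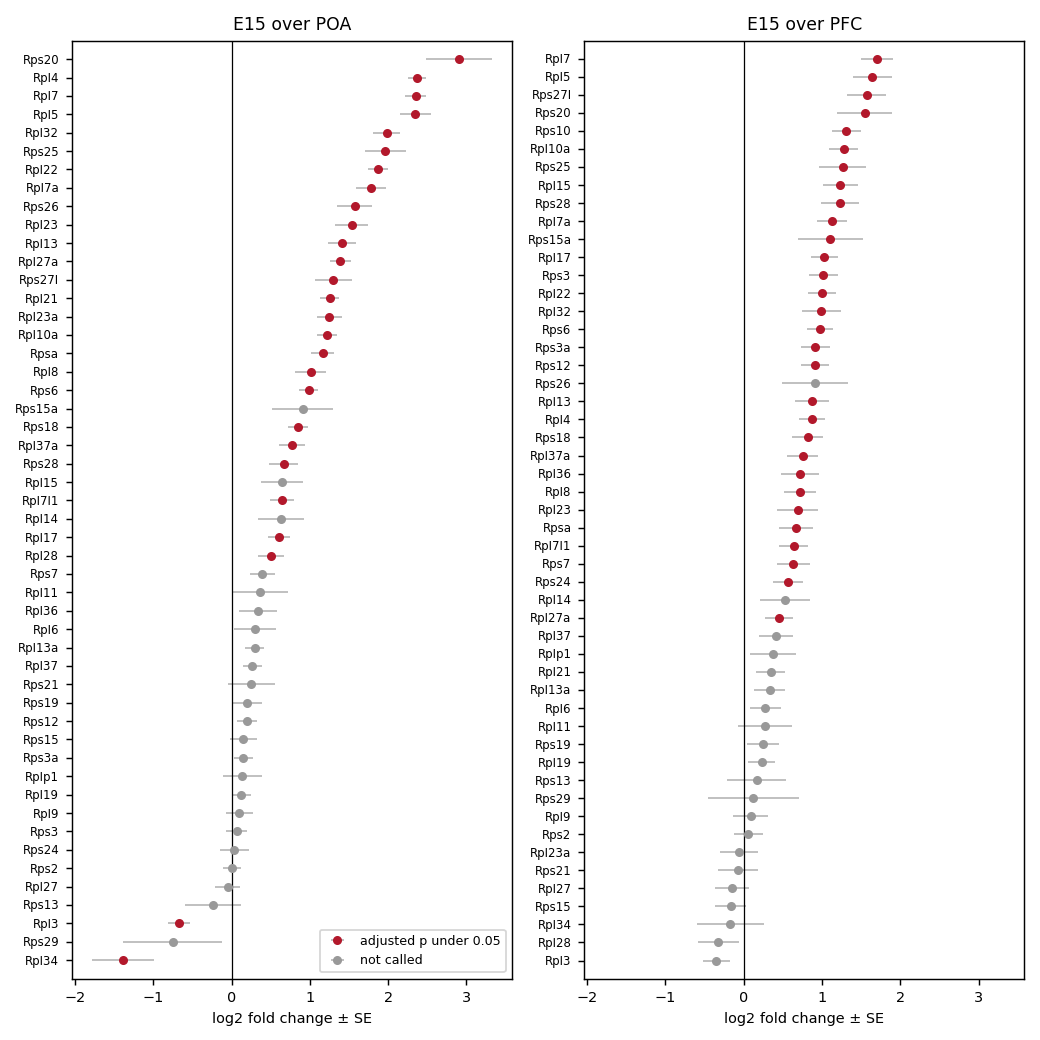
Points give the log2 fold change of each member (x axis, ± SE) for E15 over POA (left) and E15 over PFC (right), with genes on the y axis in the order of their change. Red points are the called genes: 25 to the right and 2 to the left of 0 against the POA, and 30 to the right against the PFC.

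Several members had unequal levels in the 2 E15 pools, without a test, since each cross is 1 pool. Of the 57 members, 13 (22.8%) differed over 2-fold in RPM between F1i and F1r, against 12.7% of all genes, and among genes with 500 or more reads the shares were 24.1% and 7.55%. Between crosses of the same sex the POA pools had 0 such members of 50, against 0.843% of all genes in males and 0.565% in females. The PFC pools had 2 of 50 in males (4.0%, against 4.95% of all genes) and 0 in females (against 3.49%). Rps29 had 8.56 RPM in E15 F1i and 108 in F1r, the widest gap. Rps13 had 29.9 and 139, and Rpl11 23.4 and 106. In the other direction, Rpl29 had 683 and 143, Rps20 1715 and 364, and Rps21 730 and 307. The cross and the pool cannot be told apart in E15.

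**Figure D3:**
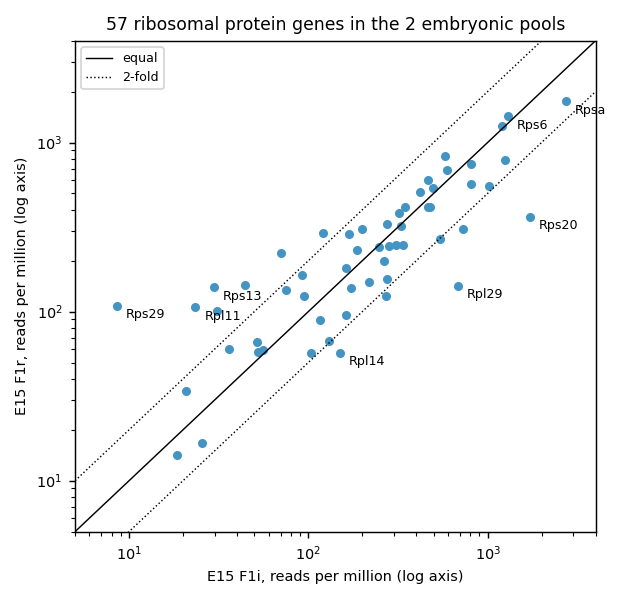
Each point is 1 of 57 genes, with its RPM in E15 F1i on the x axis and in E15 F1r on the y axis (both log axes); the solid line marks equality and the dotted lines 2-fold. Rps29, Rps13 and Rpl11 lie above the upper dotted line, and Rps20, Rpl29 and Rpl14 below the lower one, among 13 genes outside the band.

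Between the adult regions the members split in both directions. The test called 12 of 50 higher in the POA and 16 lower, where the background was 55.5% of 11942 genes (26.9% higher and 28.5% lower). The median log2 fold change was -0.04 for the members and 0.00 for all genes. Large subunit members were higher in 5 and lower in 13 of 29, small subunit members higher in 7 and lower in 3 of 19. The split turned with the scaling: without TMM, which shifts the median of all genes by 0.25, it was 21 higher and 11 lower. That shift moves all genes, and their split without TMM is not given here. The turn is therefore not a result about the members.

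Rps3, a small subunit protein at the entry of the mRNA channel that also acts in DNA repair, had 514 (F1i male), 505 (F1r male), 539.8 (F1i female) and 482 RPM (F1r female) in the POA. In the PFC it had 224, 177, 234 and 244. It was higher in the POA by 1.0 ± 0.10 on the log2 scale (edgeR adjusted p = 5.6e-06), with no overlap. Rps29 had 63.3 to 82.4 RPM in the POA and 26.8 to 34.1 in the PFC, a difference of 0.97 ± 0.13 (edgeR adjusted p = 3.85e-05). Rps3a (148 to 163 against 63.1 to 98.3), Rps12 (364 to 404 against 174 to 246) and Rpl15 (108 to 152 against 51.0 to 79.7) were higher by 0.78, 0.72 and 0.63. Rpl34 was higher by 1.23 ± 0.28 (edgeR adjusted p = 0.00234) at 6.4 to 11.4 against 2.3 to 4.3 RPM.

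Rpl4 was lower in the POA by 1.48 ± 0.09 in size (log2 fold change -1.48; edgeR adjusted p = 9.17e-08), with 226 to 249 RPM there and 510 to 608 in the PFC. Rps20 (90.1 to 136 against 164 to 305 RPM) had a log2 fold change of -1.29 ± 0.18. Rpl23a (90.8 to 116 against 160 to 306) had -1.28 ± 0.17, and Rpl32 (40.7 to 50.02 against 56.6 to 99.7) -1.0 ± 0.14. Rpl27a had -0.92 ± 0.12 and Rpl21 -0.90 ± 0.11. With uniquely aligned SNPs alone Rpl21 was 0.29 (adjusted p = 0.226), which turns the direction. Each of these lower genes had every POA pool below every PFC pool. Rpsa was called lower by less (-0.47 ± 0.12; edgeR adjusted p = 0.00496), and Rps6 (0.01), Rpl7l1 (-0.08), Rps27l (0.28) and Rplp1 (0.25) were not called. Without TMM Rpsa was at -0.22 (adjusted p = 0.135), which ends the call. The sign for Rpsa also depended on the SNP. Its 7 SNPs of 200 or more reads had log2 ratios of POA to PFC from -1.21 to 1.61, with a median of 0.24, in RPM without TMM. With the SNP of most reads Rps6 was at -0.62 and Rpl7l1 at 0.79, both called and on the other side of 0.

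Several of these changes were not the same along the transcript. At Rpl4 T1277C the mean level was 916 RPM in E15, 67.7 in the POA and 402 in the PFC. At position 341 of Rpl4 it was 66.6, 77.2 and 61.3. The coding SNP near the 3′ end thus carried most of the difference, while the upstream SNP was slightly lower in E15 than in the POA. Rpl7 G506A had 226 RPM in E15 and 82.8 in the POA, and Rpl7 G887C 293 and 33.3. Among 31 members with 2 or more SNPs of 200 or more reads, 8 (25.8%) had SNPs whose log2 ratios of E15 to POA spanned over 4-fold, against 48.2% of 6727 genes. For E15 over PFC the counts were 0 of 31 members and 7.77% of 6668 genes, and for POA over PFC 4 of 30 (13.3%) and 33.5% of 6257. Comparisons with the POA were thus the less even along transcripts, for these genes and for all. When each gene was given the median of its SNPs, 29 of 31 members were above 0 for E15 over PFC, against 3874 of 6668 genes. For E15 over POA 23 of 31 members were above 0, against 3452 of 6727 genes.

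No member was called between the sexes or between the crosses in the adult pools. Between males and females the edgeR test called 0 of 50 members and 0.0335% of all genes (0.0167% in each direction), with 4 members at an unadjusted p under 0.05, and DESeq2 called 0. Between F1i and F1r it called 0 of 50 and 0.00837% of all genes, with 6 members at an unadjusted p under 0.05, and DESeq2 again called 0. Rpsa differed between the sexes by -0.27 ± 0.12 and Rps6 by -0.20 ± 0.09 on the log2 scale (male over female), values that did not pass the correction (edgeR adjusted p = 0.911 for both).

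Genes that build and use ribosomes were examined from the same list. Over all genes, 27.2% were higher and 26.2% lower in E15 than in the PFC, and 31.9% higher and 30.6% lower than in the POA. Of ribosome biogenesis genes, 15 of 48 were higher and 4 lower in E15 than in the PFC, and 27 of 48 higher and 5 lower than in the POA. Examples are Ddx21, a helicase of ribosomal RNA transcription and processing (1.88 ± 0.19 against the PFC; edgeR adjusted p = 1.05e-05), and Wdr43, a factor of the small subunit processome (2.47 ± 0.24 against the POA; edgeR adjusted p = 1.03e-05). Of elongation and release factors, 6 of 13 were higher and 1 lower than in the PFC, and 7 of 13 and 1 against the POA. The 1 lower was in both cases Eef1a2, the form of elongation factor 1A of mature neurons and muscle, with log2 fold changes of -2.53 and -2.62, while Eef1a1, the form used elsewhere, was 1.45 ± 0.17 higher than in the PFC. Of initiation factors, 8 of 32 were higher and 3 lower than in the PFC and 13 of 33 and 6 against the POA. Genes that control messages with a terminal oligopyrimidine tract gave 5 higher and 1 lower of 12 against the PFC, and 4 and 2 of 11 against the POA.

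Mitochondrial ribosomal protein genes, whose products form a separate ribosome, were taken as a list beside them. Of 67, 4 were higher and 16 lower in E15 than in the PFC, and 13 higher and 19 lower than in the POA. Their median log2 fold changes were -0.17 and -0.11. Between the POA and the PFC, 9 of these 67 were higher and 19 lower, and of 48 biogenesis genes 9 were higher and 22 lower, against 26.9% and 28.5% of all genes.

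The allele share asks whether the CAST or the B6 copy of a gene gave more reads in the F1 brain. The members were spread around an even share, slightly to the B6 side. Their median CAST share was 47.5% in E15, 48.1% in the POA and 48.2% in the PFC, and that of all genes 48.5%, 49.2% and 48.4%. The share was beyond 40 or 60% in 14 of 57 members in E15 (24.6%, against 18.3% of all genes), 4 of 50 in the POA (8.0% against 11.5%) and 12 of 50 in the PFC (24.0% against 16.0%).

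Members were read more deeply than most genes, so small shifts were easier to call in them, here and in the share tests below. The median member had 129 to 135 RPM in the POA pools, against 32.2 to 33.1 over all genes. In the PFC it was 107 to 125 against 28.3 to 29.3, and in E15 246 and 233 against 24.9 and 25.8. The part of depth in the counts was not tested. A strain difference was called for 31 of 50 members in the POA, 11 to CAST and 20 to B6, where 29.0% of 11504 genes were called (11.8% to CAST and 17.2% to B6). In the PFC 31 of 50 were called, 10 to CAST and 21 to B6, against a background of 36.0% (11.7% and 24.3%). In E15, with 2 pools and little information on their spread, 7 of 57 were called to CAST and 13 to B6, against 11.4% of 14190 genes (3.82% and 7.63%). The E15 calls depended on the genes fitted together: adding X-linked genes, or genes with fewer reads, left 0 calls. Of the 49 members in all 3 tables, 36 (73.5%) were on the same side of 50% in all of them, against 53.2% of 10377 genes. Strain differences were called in all 3 fits for 11 of these members (22.4%) and for 5.80% of the 10377 genes. The direction was the same in each fit for all 11, as it was for 93.9% of the 602 genes so called: Rpl7, Rpl37a, Rplp1 and Rps27l to CAST, and Rpl27, Rpl27a, Rpl5, Rpl7a, Rps6, Rps15 and Rps15a to B6. With the SNP of most reads Rpl7 in the PFC, Rps6 in E15 and the PFC, and Rps15a in the POA and the PFC turned direction and were not called.

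**Figure D4:**
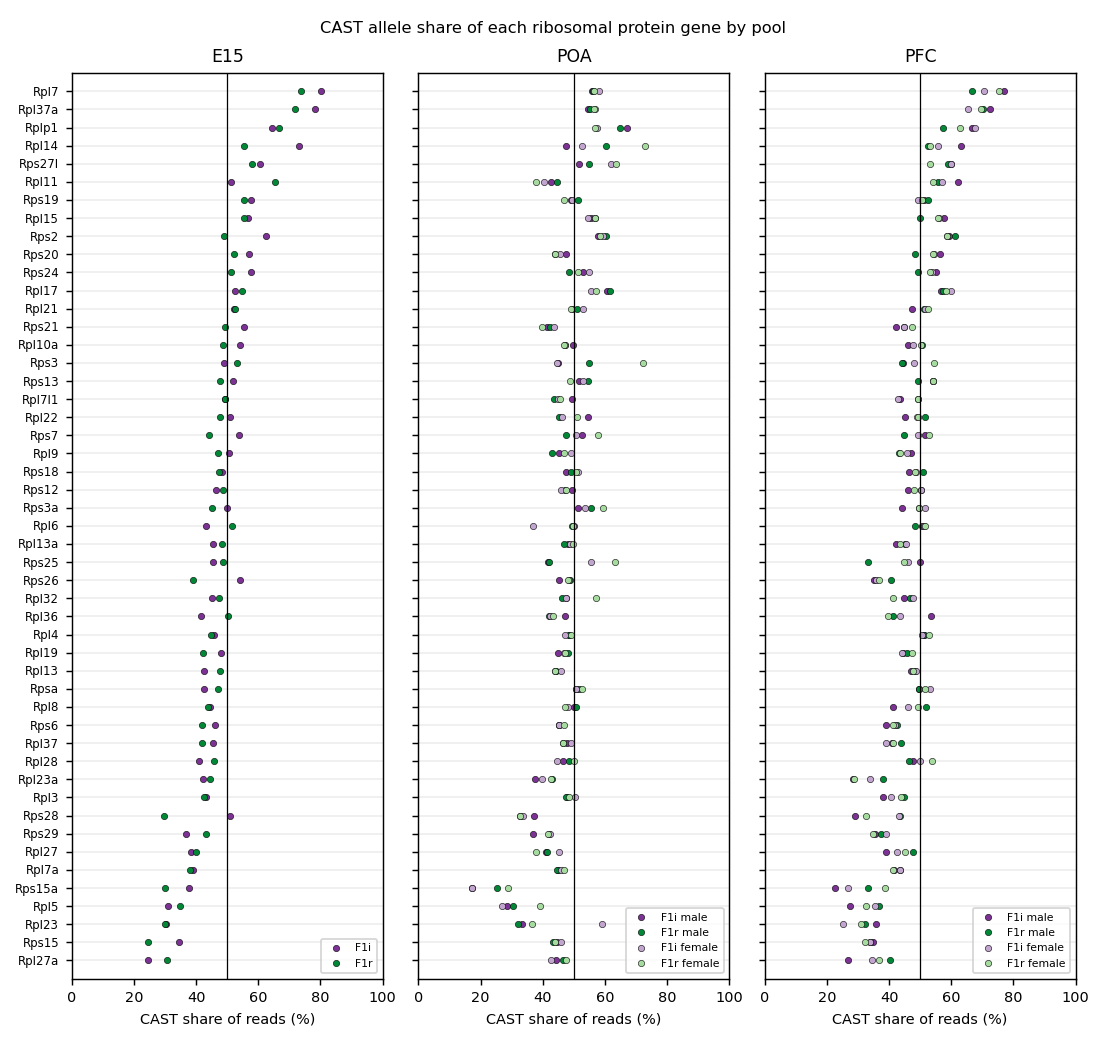
Points give the CAST share of reads (x axis, percent) of each of the 49 genes in all 3 tables (y axis, in the order of the E15 share) in each pool of E15, POA and PFC; the vertical line is 50%. Rpl7 and Rpl37a are at the top and Rpl27a and Rps15 at the bottom in E15, and these 4 genes lie nearer the line in the POA.

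Rpl7 had the highest share, 80.2% and 73.6% in E15 F1i and F1r. In the POA it was 55.8% (F1i male), 56.2% (F1r male), 58.2% (F1i female) and 56.4% (F1r female), and in the PFC 77.0%, 66.8%, 70.7% and 75.4%. All 10 pools were above 50%. Rpl37a followed with 78.2% and 71.8% in E15, 54.7 to 56.96% in the POA and 65.3 to 72.4% in the PFC. Rplp1 was at 64.5% and 66.7% in E15, 56.7 to 67.0% in the POA and 57.2 to 67.6% in the PFC. Rps27l was between 51.8 and 63.5% in every pool. The CAST side thus held proteins of the large subunit body, of its stalk and a paralogue of the small subunit.

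Rpl27a was the lowest in E15 (24.4% and 30.7%), with 42.8 to 47.4% in the POA and 26.7 to 40.2% in the PFC. Rps15, a small subunit protein, had 34.3% and 24.4% in E15, 43.3 to 45.9% in the POA and 32.3 to 34.9% in the PFC. Rps15a, another one, had 37.6% and 29.98% in E15, 17.1 to 28.9% in the POA and 22.7 to 38.6% in the PFC. With the SNP of most reads Rps15a was not called in any region (log2 CAST over B6 -0.22 in E15), and its value turned to 0.057 in the POA and 0.14 in the PFC. At the 2 SNPs of Rps15a listed in all 3 tables, E15 F1i (52.6%) and the PFC F1r pools (52.7% in females and 58.2% in males) were above 50%. Rpl5 had similar means in the 3 regions, 32.9% in E15, 31.4% in the POA and 33.0% in the PFC. Its single pools ran from 27.0 to 39.3% in the POA and from 27.3 to 36.8% in the PFC. Rpl5 has 1 SNP, with a mean of 63.0 reads per pool in the POA and 88.25 in the PFC. Rpl35a (32.0% in E15) was a member in E15 alone and called to B6 there. Over all SNPs of each table every pool of these genes was under 50%.

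Other called members also lay far from an even share. Rps28 had a share of 32.6 to 37.1% in the POA (log2 CAST over B6 -0.97 ± 0.08; edgeR adjusted p = 6e-08). With repeated listings of a SNP summed the Rps28 value was -0.12 (adjusted p = 0.23), which ends the call. Rps29 had 36.8 to 42.2% in the POA and 34.7 to 39.0% in the PFC, and Rpl23a 37.6 to 43.1% and 28.5 to 38.0%. Rpl27 had 37.8 to 45.4% in the POA. Rpl23, with a mean of 84.5 reads per pool in the PFC, had 25.2 to 35.8% there and 30.4% and 29.9% in E15. To the CAST side, Rps2 had 57.9 to 60.4% and Rpl17 55.6 to 61.6% in the POA.

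Rpsa and Rps6 are among the members with most reads. Rpsa had a CAST share of 50.7 to 52.8% in the POA and was called (log2 CAST over B6 0.09 ± 0.03; edgeR adjusted p = 0.0296), was not called in the PFC (0.06 ± 0.04) and was called to B6 in E15 (-0.30 ± 0.07; edgeR adjusted p = 0.045), with 42.6% and 47.1%. The POA call for Rpsa ended with X-linked genes added (adjusted p = 0.0729), with DESeq2 (adjusted p = 0.374) and without the F1i male, F1i female or F1r female pool (adjusted p = 0.14, 0.172 and 0.139). The E15 call for Rpsa ended with TMM over allele columns (edgeR adjusted p = 0.0844) and with DESeq2 (adjusted p = 0.315). It also ended with the SNP of most reads and with SNPs clean in the parental pools (edgeR adjusted p = 0.0813 and 0.0702). Rps6 was at 45.1 to 46.7% in the POA and 39.1 to 42.5% in the PFC. Rpl4 in E15 was at 45.8% and 44.8%.

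The share differed between POA and PFC for 13 of 49 members (background 11.0% of 10356 genes), with 9 higher and 4 lower in the POA (background 7.12% and 3.91%). Rps15 had the smallest adjusted p (log2 difference 0.66 ± 0.06; edgeR adjusted p = 1.37e-07). Rpl7 (-1.02 ± 0.12), Rpl37a (-0.83 ± 0.11) and Rpl27a (0.65 ± 0.10) followed, each with edgeR adjusted p under that of the other 9. With the SNP of most reads the Rpl7 difference was -0.03 (adjusted p = 0.917), which ends the call. Rpl11, summed over its SNPs, was on opposite sides of 50%, at 37.8 to 44.7% in the POA and 54.1 to 62.3% in the PFC (-0.92 ± 0.15; edgeR adjusted p = 0.000321). Its 2 SNPs differed within the POA, with CAST shares of 33.6% and 60.6% there, so 1 of them was on the CAST side in the POA too. Rps20 had 43.9 to 47.4% in the POA and 48.5 to 56.4% in the PFC, where 1 pool was under 50% (-0.49 ± 0.09; edgeR adjusted p = 0.000847). Of the 13, 10 had the share nearer to 50% in the POA, as had 72.2% of the 1142 genes called in this test.

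Between E15 and the adult pools, 2 of 49 members differed in share (background 1.23% of 10015 genes, 0.439% higher and 0.789% lower). Rps21 had 55.5% and 49.1% in E15, 39.7 to 43.7% in the POA and 42.2 to 47.2% in the PFC (log2 difference 0.53 ± 0.12; edgeR adjusted p = 0.0389). Rpsa had the opposite sign (-0.37 ± 0.08; edgeR adjusted p = 0.0414). Leaving out any single pool other than the PFC F1r male pool ended at least 1 of the 2 calls. Without E15 F1i the differences were 0.33 for Rps21 (adjusted p = 0.618) and -0.25 for Rpsa (adjusted p = 0.569).

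The imbalance of several members sat on single SNPs. At Rpl7 G506A the CAST share was 46.0% and 43.8% in E15, 45.0 to 49.4% in the POA and 45.2 to 50.9% in the PFC. At Rpl7 G887C it was 97.3% and 85.2%, 66.9 to 70.0%, and 88.8 to 92.2%. At Rpl7 T896C it was 98.7% and 90.4%, 75.3 to 79.2%, and 94.1 to 95.3%. The coding SNP was thus close to even while both SNPs in the 3′ UTR were almost wholly CAST in E15 and the PFC. The deposited SNP list for the pure strains in E15 has the same order: at G887C 1027 reads in CAST and 89 in B6, at T896C 568 and 18, and at G506A 942 and 1033. Using the SNP with most reads for each gene, Rpl7 was not called in the PFC (log2 CAST over B6 -0.14).

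Rpl4 was close to even at T1277C (47.8% and 46.0% in E15, 47.4 to 52.6% in the POA, 52.9 to 55.6% in the PFC). At Rpl4 G1346A it was 12.4% and 23.5% in E15 and 7.1 to 27.3% in the PFC, but 39.8 to 57.6% in the POA. Rpl27a A283G, which took most of that gene's reads, was at 23.3% and 29.4% in E15, 42.4 to 47.2% in the POA and 24.7 to 38.2% in the PFC, while A812G was at 48.0% and 49.7% in E15. Low shares at Rpl27a and Rpl4 therefore belonged to 1 SNP of each.

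Rps6 ranged from 33.9% and 32.8% at position 467 to 52.6% and 50.2% at position 509 in E15. Rps15 was below 50% at all 3 of its deep SNPs in E15, from 20.3% to 41.1%. Within-gene ranges over 20 percentage points were found in 11 of 29 members in E15 (37.9%, against 34.7% of all genes), 6 of 27 in the POA (22.2% against 18.4%) and 6 of 26 in the PFC (23.1% against 32.3%), over genes with 2 or more SNPs of 200 or more reads. Of the members' SNPs in E15, 34.7% did not have most of their pure-strain reads classed as uniquely aligned, against 54.7% of all SNPs. The class does not say where else a read aligned, so it does not measure reads shared with pseudogenes. Reads from pseudogene copies were not tested as a part of these shares.

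**Figure D5:**
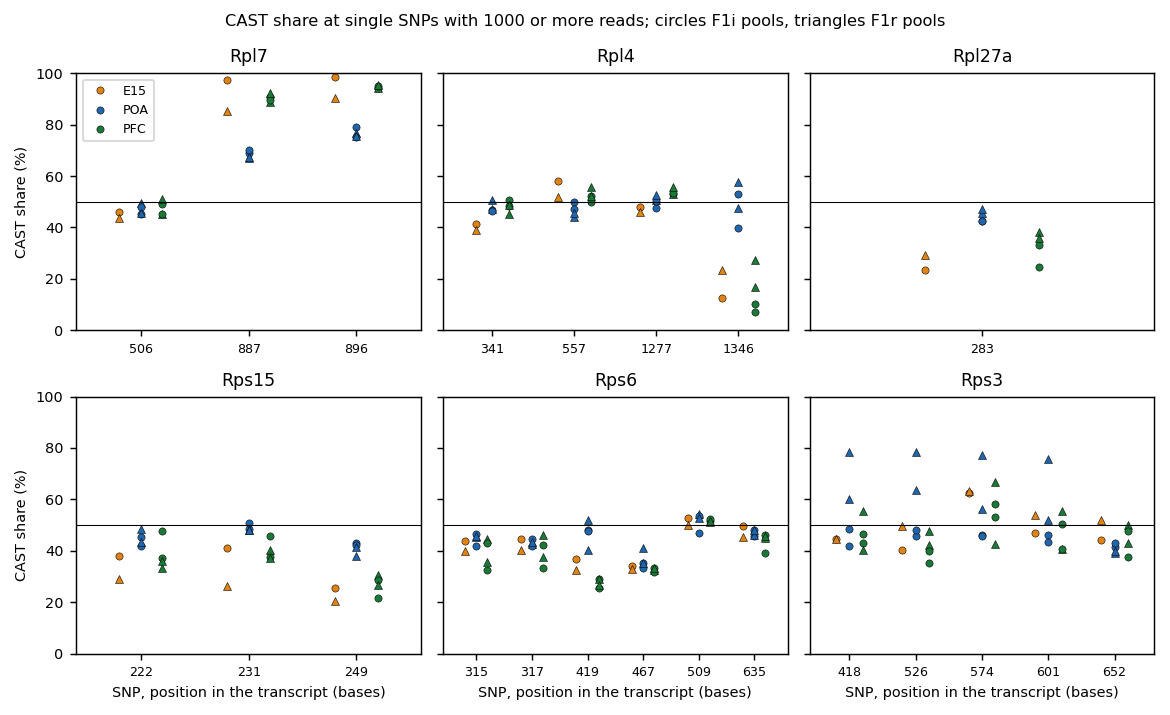
Points give the CAST share (y axis, percent) at each SNP with 1000 or more reads (x axis, position in the transcript in bases) for 6 genes; colours mark the region, circles F1i pools and triangles F1r pools. Rpl7 lies between 43.8 and 50.9% at 506 and at 66.9% or more in every pool at 887 and 896, and in Rps3 the F1r female POA pool stands above 75% at 4 SNPs and at 39.8% at 652.

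The maternal share, which imprinting would shift, was examined in each region. A parental effect needed an adjusted p under 0.05 together with maternal shares of F1i and F1r that both exceed or both fall short of 50%. In the POA 1 of 50 members was called, Rps3 to the paternal side, where the background was 1.18% of 11504 genes (0.313% maternal and 0.869% paternal). In the PFC 0 of 50 were called (background 0.444%, 0.145% maternal and 0.299% paternal; 6 at an unadjusted p under 0.05 with edgeR, 0 with DESeq2). Over all adult pools 0 of 49 were (background 0.744%, 0.222% and 0.521%; 5 at an unadjusted p under 0.05, 0 with DESeq2).

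The Rps3 pools were uneven. The maternal share of Rps3 in the POA was 45.0% (F1i male), 45.1% (F1r male), 44.7% (F1i female) and 27.6% (F1r female), a log2 difference of -1.17 ± 0.20 (edgeR adjusted p = 0.00191). The F1r female pool stood apart, with a CAST share of 78.3% at position 418, 78.6% at 526, 77.4% at C574T and 75.6% at T601C, but 39.8% at C652T. The same pool stood high at single SNPs of other members: 71.4% and 69.7% at positions 286 and 295 of Rpsa, 72.5% at position 592 of Rpl14 and 70.9% at position 558 of Rps3a. Without that pool the difference for Rps3 was -0.58 (adjusted p = 0.00279). It was not called by DESeq2, at uniquely aligned SNPs alone (adjusted p = 0.209) or without either F1i pool (adjusted p = 0.35 and 0.516). Rpl14 had adjusted p = 0.0161 in the same edgeR test, but its maternal share (47.7%, 39.6%, 52.8% and 27.0%) was on both sides of 50% within F1i. In the PFC the smallest p was that of Rpl27a (-0.49 ± 0.13; edgeR adjusted p = 0.278), whose maternal share was 26.7% and 34.5% in the F1i pools and 59.8% and 63.2% in the F1r pools, so that CAST was under 50% in all 4.

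In E15, where Fisher's exact test compares the reads of 1 pool per cross, 6 of 57 members were called maternal and 5 paternal (background 4.86%, 3.2% maternal and 1.66% paternal). The test covers counting error alone. Rps28 had the largest difference (log2 1.30; Fisher's exact test, adjusted p = 4.72e-28), with a CAST share of 50.8% in F1i and 29.6% in F1r, and was not called by edgeR on all 10 pools (adjusted p = 0.102). Rps2 had the smallest adjusted p of the members (0.79; Fisher's exact test, adjusted p = 8.1e-48), with 62.5% and 49.0%. With the SNP of most reads the Rps2 difference was 0.024 (adjusted p = 0.994), which ends the call, as do uniquely aligned SNPs (adjusted p = 0.33). The edgeR fit on all 10 pools called fewer of these members. With 1 E15 pool per cross, the spread in that fit comes from the adult pools alone. It is therefore no replicate check for E15.

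The pure strains show whether the difference between alleles in the F1 is also a difference between the parents. In E15 brain the members summed to 17868 RPM in CAST and 18688 in B6. The direction of the strain difference was the same in the parents and in the F1 for 37 of 57 members (64.9%), against 68.8% of 12556 genes. Across the members the log2 ratios of parents and F1 had a Pearson r of 0.742, and across all genes 0.658, given as a description since genes are not independent and both come from the same SNPs. Rpl7 had 620 RPM in CAST and 227 in B6 (log2 1.45) and 1.69 in the F1. Rps15 had 333 and 841 RPM (-1.33), with -1.21 in the F1, and Rpl27a 461 and 979 (-1.09), with -1.37. Other members differed more between parents and F1: Rpl37a had 1.12 in the parents and 1.63 in the F1, Rps15a -0.59 and -1.10, and Rpl5 -0.14 and -0.99. Rpl35a, with 128 and 111 RPM, had 0.20 in the parents and -1.16 in the F1. Rpl4 had 0.63 and -0.27, and Rps28 0.14 and -0.74, so that these 3 were on opposite sides of 0. Each strain is 1 pool, so these differences have no replicate check.

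The start of these genes was compared with that of other genes, because a pyrimidine tract there is the family's known feature. RefSeq (GRCm38.p6) gave a promoter window for 43 of the 57. The letters CTTTCC were searched in the 30 bases around the annotated start on both strands. They stood on the gene's strand in 7 of 43 (16.3%) and on the other strand, as GGAAAG, in 0, against 1.67% and 1.48% of 27025 genes. The windows of 3 members are shown because they hold the motif just after the start, in capitals.
Rpl38 chr11:114668565-114668594, plus strand: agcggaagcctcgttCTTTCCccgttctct
Rpl28 chr7:4792950-4792979, plus strand: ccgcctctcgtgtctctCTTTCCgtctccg
Rps10 chr17:27635230-27635259, minus strand: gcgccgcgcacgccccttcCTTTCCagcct
In Rpl38 the motif begins at the annotated first base. A match is a description of the letters, and members without it were not looked at further.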

How the data were processed

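Polyadenylated RNA of pooled mouse brain was sequenced for 36 cycles after random-hexamer priming, in 32 libraries, 24 of them F1. The submitters' processing notes name Novoalign as a tool and mm9 as a build; versions are not given in the sources used here. The deposited values are read counts per SNP, pool and allele, and the authors had summed technical replicates per the labels' protocols. Every listed SNP had reads in the pools of its table, SNPs under a read length apart can count the same read again, and strand is not recorded. Reads placed on the mitochondrial genome were left out.

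The deeper of repeated listings of a SNP was kept, and reads were summed over the SNPs of each gene's transcript with most reads. Comparisons between regions used SNPs in both tables. Levels and allele counts were tested with edgeR 4.0.16 (R 4.3.3) over all genes, with TMM for levels and equal library sizes for the 2 alleles of a pool; Benjamini-Hochberg adjusted p under 0.05 was called. DESeq2 1.42.0 was an alternative. The scripts were tested on simulated data. The parental strains of the adult regions were not used.

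The members and lists were chosen with earlier results of these data known, and the gene lists and the SNP ranges along transcripts are descriptions. Genes named in the text are the 6 called members of largest change in each direction, the paralogues, Rpsa, Rplp1 and Rps6; for shares, the 10 called members farthest from 50% and the 3 with most reads; for differences of share and parental effects, up to 10 called members, or the 5 of smallest p; and the SNPs of genes named for their share. Members named for unequal E15 pools, the SNPs of Rpl4, Rpl14, Rps3a and Rpsa, and Rpl35a and Rpl4 among the parents were chosen after their values were seen. Per the labels' protocols, technical replicates are repeat runs of 1 RNA sample, so each pool counted as 1 sample. A few genes that these rules would name are not reported here.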

Additional observations from a re-analysis of the deposited data

Results flagged for a closer look

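Of 61 groups of 4 pools looked at, 3 had a pool far from the others, and chance gives about 1 in 20. The CAST share of Rps29 in the POA was 36.8% in F1i males and 41.8 to 42.2% in the other pools. Rpl27a in the PFC had 330 RPM in F1r males and 409 to 423 in the others. Rpl7l1 in the PFC had 61.2 RPM in F1i males and 51.7 to 52.7 in the others.

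The CAST share differed between POA and PFC, by the test of the difference, for 13 members. The log2 differences, positive where the POA had the higher share, were 0.66 for Rps15, -1.02 for Rpl7, -0.83 for Rpl37a, 0.65 for Rpl27a, -0.92 for Rpl11, -0.49 for Rps20, 0.40 for Rpl3, 0.56 for Rpl23a, 0.38 for Rpl37, 0.67 for Rps26, 0.26 for Rps6, 0.26 for Rpl13a and 0.37 for Rps3a. Rps21 (0.53) and Rpsa (-0.37) differed between E15 and the adult pools.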

How the results depend on the processing

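No paired analysis was possible because the deposited columns sum the technical replicates and carry no replicate number to pair by. Cross and sex, by which the POA and PFC pools match, were terms of the expression fit, and the allele fits had a term per pool. The number of members called stayed within 1.5 times the main value in every alternative run for the expression comparisons and for the strain differences in the POA, in the PFC and between them. Leaving out 1 pool gave 24 to 29 calls for POA against PFC (28 with all pools), 27 to 38 for E15 against POA (27), 24 to 32 for E15 against PFC (30), 21 to 28 for the strain difference in the POA (31), 24 to 29 in the PFC (31) and 11 to 13 between them (13). The strain difference in E15 (20 calls) gave 0 with X-linked genes, 0 with a mean of 1 read per pool, 11 with DESeq2, 10 with the deepest SNP, 12 with SNPs clean in the parental pools and 8 with uniquely aligned SNPs. E15 against adult (2) gave 0 with X-linked genes, 1 with TMM over allele columns, 0 with the deepest SNP, 0 with uniquely aligned SNPs, and 0 to 2 without 1 pool. The parental effect in the POA (1) gave 0 with X-linked genes, 0 with DESeq2, 0 with uniquely aligned SNPs, and 0 to 1 without 1 pool; over all adult pools (0) it gave 1 with a mean of 1 read, 1 with clean SNPs and 0 to 1 without 1 pool; in E15 (11) it gave 1 with edgeR on all pools and 3 with uniquely aligned SNPs.

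Of 1622 values of named genes under alternatives, 1495 kept the call or its absence, 97 lost the call, 18 gained it and 12 reversed. A sign change of a value called in neither run can be among the 1495. Rplp1 in E15 over PFC, for example, went from 0.37 to -0.38 without E15 F1r. With the deepest SNP, POA over PFC was 0.79 for Rpl7l1 and -0.62 for Rps6, and CAST over B6 was 0.057 for Rps15a in the POA, -0.14 for Rpl7, 0.14 for Rps15a and 0.10 for Rps6 in the PFC, and 0.082 for Rps6 in E15. With uniquely aligned SNPs, POA over PFC was 0.29 for Rpl21, and the parental difference in E15 was 0.41 for Rpl34 and 0.12 for Rps3. E15 over POA was 3.99 for Rpl34 with each table's own SNPs and ranged from -0.53 without E15 F1r to 0.71 without E15 F1i for Rplp1. The cause was not tested. Uniquely aligned SNPs and summed repeated listings were alternatives chosen after seeing the data. Where 1 E15 pool was left out, the lone pool was assumed to vary like the others. Members with under about 100 reads per pool, such as Rps25, Rpl34, Rpl23 and Rpl5 in the adult regions, have coarse shares.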
